A study of Mus musculus with 768 samples.

Results

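The oxidative phosphorylation genes described here were 76 of the 24490 endogenous genes in the tables. They were taken by a rule on symbols, which was set with earlier results of these data known. The rule took every gene whose name begins with Ndufa, Ndufb, Ndufc, Ndufs or Ndufv followed by a digit, or with Uqcr. It also took names that begin with Cox followed by a digit from 4 to 8, or with Atp5 followed by a letter from a to o. The assembly factors (Ndufaf), predicted genes, and the isoforms Ndufa4l2 and Cox4i2 were left out. By these names 36 genes fell to complex I, 8 to complex III, 17 to complex IV and 15 to complex V.

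Oxidative phosphorylation takes place in the inner membrane of mitochondria, where complex I oxidizes NADH, complex III carries electrons from ubiquinol to cytochrome c, complex IV hands them to oxygen, and complex V, the ATP synthase, makes ATP from the proton gradient that the others build. Most subunits are encoded in the nucleus and are made in every cell with mitochondria, but some, above all in complex IV, exist as isoforms that replace each other between tissues. Some core subunits are encoded by mitochondrial DNA, and the tables held 0 rows for those genes, so only nuclear-encoded subunits are described.

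The cells came from 2 late mammary carcinomas of MMTV-PyMT mice (strain FVB/N-Tg(MMTVPyVT)634Mul/J) at 14 weeks of age, in which the MMTV promoter drives the polyoma middle T oncogene in mammary epithelium. Viable single cells without EpCAM, CD45, CD31 and NG2 on their surface were sorted into 768 wells, 1 cell per well and 1 tumor per plate, and sequenced by Smart-seq2 with ERCC spike-in RNA. All cells belonged to 1 group with no other treatment, so the tumor was the replicate (n = 2). Whether the 2 tumors grew in separate mice is not given in the sources used here, and tumor and plate cannot be told apart. Wells with at least 10000 endogenous (non-ERCC) reads were used, which left 727 wells with 10281 to 1190516 endogenous reads and put 41 wells aside.

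Cell populations were rebuilt from the data, and a cluster was named "-like" after the study's term from a list of markers. The vCAF-like cells (vascular cancer-associated fibroblasts, markers such as Rgs5, Higd1b and Notch3) numbered 234 and 211 in tumors 1 and 2, the mCAF-like cells (matrix, Dcn, Lum and Pdgfra) 76 and 66, the cCAF-like cells (cycling, Top2a and Mki67) 24 and 19, and the dCAF-like cells (developmental, Scrg1, Sox9 and Sox10) 9 and 20. The other cells, 30 and 38, stayed unnamed and were not used, which left 659. Of the unnamed cells 14 and 21 had under 50000 endogenous reads. Which shallow cells counted as vCAF-like changed with the t-SNE map, and results that changed with it are given with both values. For each population the reads of all its cells from 1 tumor were added up, giving 8 libraries. No oxidative phosphorylation gene was among the variable genes on which the cells were clustered. The p-values below measure the spread between libraries of 2 tumors.

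Some facts of the libraries bear on every comparison below. The 8 libraries held 2341448 to 49969402 endogenous reads. The ratio of endogenous to ERCC reads, which rises with the RNA content of a cell when each well gets the same spike-in, was 6.07 and 6.47 in vCAF-like, 13.2 and 12.4 in mCAF-like, 9.66 and 10.4 in cCAF-like and 6.98 and 9.63 in dCAF-like cells of tumors 1 and 2. The 9 epithelial markers checked (Epcam, keratins, Cdh1 and claudins) summed to a mean RPKM of 1130.0 and 428 in the dCAF-like libraries against 5.15 to 15.3 in the other 6, and 2 of the 9 were at 0 in the dCAF-like library of tumor 1. The 7 endothelial markers summed to 60.0 to 120.5 in vCAF-like and cCAF-like libraries, with 3 to 5 of them at 0, and to at most 7.97 elsewhere.

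Promoters are shown first for 4 genes on which the results below turn. Ndufa4 differed most between populations among the genes read in all of them. Cox8b was read almost only in dCAF-like cells and passed the filter on levels through those reads, so its difference is a description. Atp5b had the highest mean level of all 76 over the 659 cells pooled, though not in every library. Cox6a1 is an abundant complex IV subunit whose window holds binding-site letters that are known from many respiratory genes. Each run is the 250 bases before the RefSeq start in GRCm38.p6, read 5′ to 3′ on the strand of the gene, with motif matches on either strand in capitals. The windows are chr6:11907451-11907700 (minus strand) for Ndufa4, chr7:140900447-140900696 (minus strand) for Cox8b, chr10:128083057-128083306 (plus strand) for Atp5b and chr5:115348959-115349208 (minus strand) for Cox6a1.
Ndufa4: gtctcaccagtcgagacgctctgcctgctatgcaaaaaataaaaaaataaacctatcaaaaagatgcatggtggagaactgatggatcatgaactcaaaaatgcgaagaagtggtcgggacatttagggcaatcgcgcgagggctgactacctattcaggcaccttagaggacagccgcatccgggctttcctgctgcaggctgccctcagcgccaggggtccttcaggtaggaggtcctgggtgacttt
Cox8b: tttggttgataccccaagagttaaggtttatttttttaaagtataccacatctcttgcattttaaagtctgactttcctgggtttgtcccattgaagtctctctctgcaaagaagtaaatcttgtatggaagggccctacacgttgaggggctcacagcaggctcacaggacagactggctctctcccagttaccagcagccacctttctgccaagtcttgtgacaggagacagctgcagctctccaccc
Atp5b: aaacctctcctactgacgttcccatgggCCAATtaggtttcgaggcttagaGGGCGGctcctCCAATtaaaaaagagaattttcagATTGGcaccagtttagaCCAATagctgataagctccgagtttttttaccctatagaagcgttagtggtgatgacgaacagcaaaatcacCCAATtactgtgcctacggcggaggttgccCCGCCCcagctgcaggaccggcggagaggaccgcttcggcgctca
Cox6a1: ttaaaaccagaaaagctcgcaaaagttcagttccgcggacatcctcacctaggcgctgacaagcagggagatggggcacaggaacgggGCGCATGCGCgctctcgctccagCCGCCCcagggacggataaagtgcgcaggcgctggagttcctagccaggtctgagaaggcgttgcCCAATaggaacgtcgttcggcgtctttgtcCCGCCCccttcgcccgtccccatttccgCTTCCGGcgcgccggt

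Of the 76 genes 64 had a promoter window in RefSeq. NRF1 (nuclear respiratory factor 1) and the ETS family factor GABP are textbook activators of respiratory genes. The NRF1 letters GCATGCGC were found on either strand in the windows of 7 of the 64 genes (10.9%), against 2.56% of the 27025 genes with a window, and the ETS letters CCGGAAG in 11 (17.2%) against 7.83%. The CCAAT letters occurred in 27 (42.2%) against 37.5%, the Sp1 letters GGGCGG in 23 (35.9%) against 35.4%, and the TATAAA letters in 6 (9.38%) against 14.3%. The other letters searched were found in 5 genes for the ERR letters AAGGTCA (7.81% against 4.7%), 6 for CACGTG (9.38% against 6.86%) and 1 for the YY1 letters AAGATGGCG (1.56% against 0.71%). The Cox6a1 window held the NRF1 letters on both strands, overlapping each other, 2 Sp1 matches, 1 CCAAT and 1 ETS match, whereas the Atp5b window held 5 CCAAT and 2 Sp1 matches. Neither the Ndufa4 nor the Cox8b window held any of these letters. These are matches of letters only.

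Summed over all 76 genes, the transcripts took a smaller part of the reads in mCAF-like cells than in the other populations and a larger part in cCAF-like and dCAF-like cells. The share of endogenous reads was 1.17% and 1.17% in vCAF-like cells of tumors 1 and 2, 0.736% and 0.766% in mCAF-like, 1.49% and 1.56% in cCAF-like and 1.53% and 1.58% in dCAF-like cells. The means were 1.17% ± 0.00104, 0.751% ± 0.0212, 1.52% ± 0.0493 and 1.55% ± 0.0346 (SD, n = 2 tumors), so the mCAF-like and the vCAF-like libraries overlapped with no other population, while cCAF-like and dCAF-like libraries overlapped. An exact permutation test over 2 tumors against 2 cannot go below a two-sided p of 0.333, so none was run on these shares. Leaving Ndufa4 out gave a mean of 0.737% in mCAF-like and 1.51% in dCAF-like cells. A lower share in mCAF-like than in vCAF-like cells was not particular to the 76 genes. The mean shares there were 0.554% against 0.723% for cytosolic ribosomal, 0.235% against 0.290% for mitochondrial ribosomal and 0.170% against 0.260% for glycolysis genes.

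**Figure D1:**
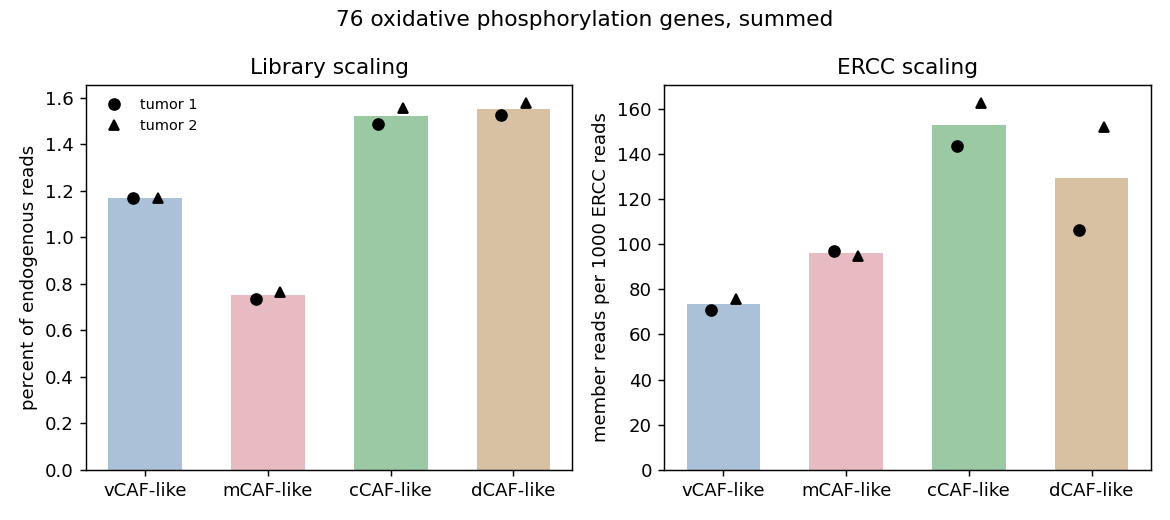
Reads on the 76 oxidative phosphorylation genes by population, as percent of endogenous reads (left axis) and per 1000 ERCC reads (right axis), where bars are means of 2 tumors, circles tumor 1 and triangles tumor 2. The mCAF-like bar is the lowest at left (0.751%), and the vCAF-like bar is the lowest at right (73.3 reads per 1000 ERCC reads).

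Scaling to the spike-in put the populations in another order. Per 1000 ERCC reads, vCAF-like cells gave 71.0 and 75.7 reads on the 76 genes, mCAF-like cells 97.2 and 95.0, cCAF-like cells 144 and 163, and dCAF-like cells 107 and 152. Both vCAF-like libraries were thus below all others, and the dCAF-like libraries lay far apart, 1 near the mCAF-like and 1 near the cCAF-like values. The mCAF-like cells had the smallest share of their reads on these genes and more such reads per spike-in read than vCAF-like cells.

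For each of the 4 complexes the mCAF-like libraries had the lowest shares. Complex I took 0.390% and 0.405% of reads in vCAF-like, 0.299% and 0.314% in mCAF-like, 0.495% and 0.517% in cCAF-like and 0.573% and 0.605% in dCAF-like cells. Complex III took 0.144% and 0.139%, 0.0792% and 0.0850%, 0.164% and 0.192%, and 0.177% and 0.166% in the same order. Complex IV took 0.200% and 0.203%, 0.119% and 0.132%, 0.259% and 0.280%, and 0.280% and 0.263%. For complex V, with 0.436% and 0.421%, 0.239% and 0.235%, 0.568% and 0.567%, and 0.497% and 0.542%, the cCAF-like libraries were above the dCAF-like ones in both tumors.

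Among single cells the share spread widely within each population. The lowest, median and highest share per vCAF-like cell were 0.410%, 1.10% and 2.41% in tumor 1 and 0.394%, 1.13% and 2.01% in tumor 2. For mCAF-like cells they were 0.411%, 0.740% and 1.23% in tumor 1 and 0.343%, 0.775% and 1.57% in tumor 2. They were 0.961%, 1.47% and 1.91% and 0.953%, 1.41% and 3.09% for cCAF-like cells, and 1.00%, 1.43% and 2.04% and 0.509%, 1.52% and 2.98% for dCAF-like cells. Single cells of different populations therefore overlapped, although in both tumors the median was lowest in mCAF-like cells, next in vCAF-like cells and higher in the others. After each well had been thinned to 50000 endogenous reads, a median of 54 and 54 of the 76 genes was read per vCAF-like cell, 57 and 56 per mCAF-like, 61 and 60 per cCAF-like, and 60 and 62.5 per dCAF-like cell, with 6, 2, 2 and 2 cells too shallow to be thinned.

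Levels per gene are given as mean RPKM (reads per kilobase of gene model, scaled to sequencing depth), which allows genes of different length to be compared. The mean RPKM over all 659 cells ran from 0 to 686, with a median of 126 over the 76 genes against 10.2 over all genes tested below. It reached 100 or more for 47 of the 76 genes and stayed under 10 for 10. Cox8c, a testis isoform, was not read in any cell.

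**Figure D2:**
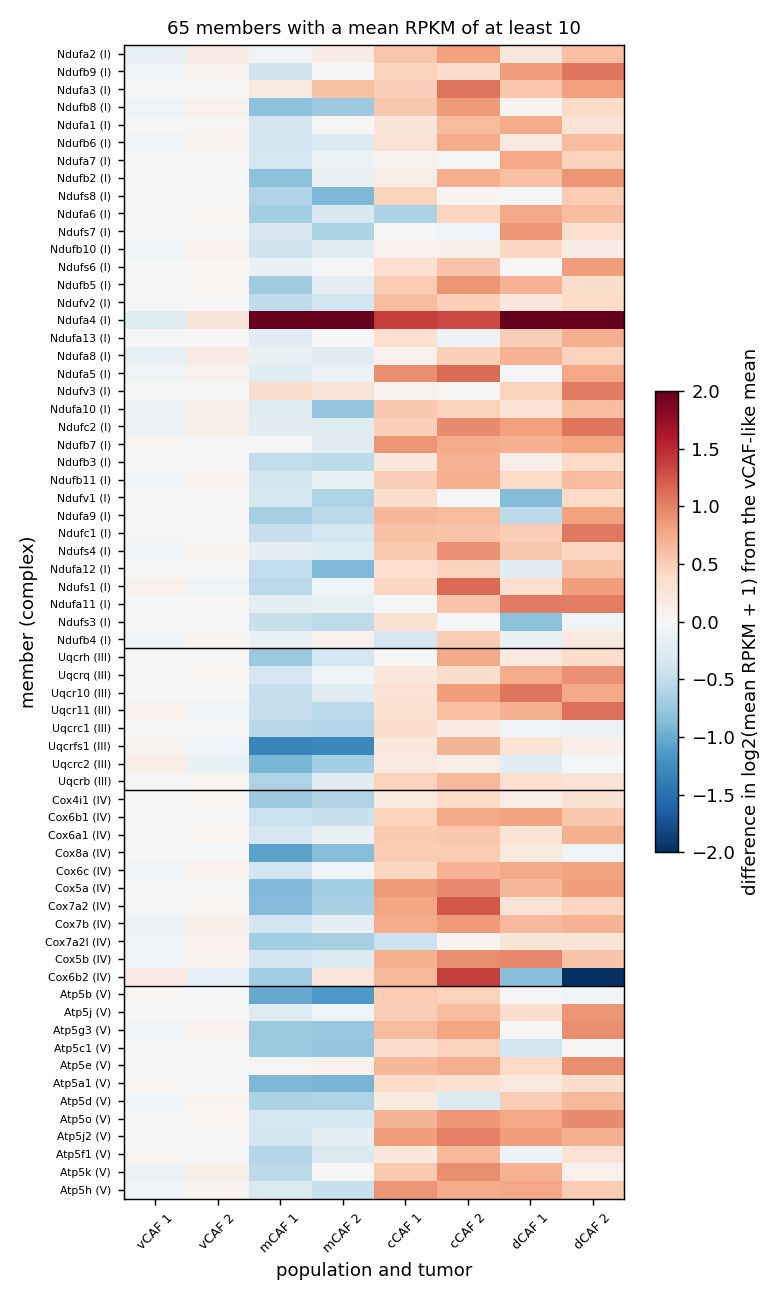
Level of 65 of the members with a mean RPKM of at least 10 (rows, by complex) in the 8 libraries (columns, population and tumor), as the difference in log2(mean RPKM + 1) from the vCAF-like mean, with colors limited to -2 and 2. The mCAF-like columns are mostly blue, the cCAF-like and dCAF-like columns mostly red, and Ndufa4 is red in all 6.

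By the mean RPKM over all cells used, complex I was led by 3 small accessory subunits. Ndufa4, described below, stood above all 3 in both dCAF-like libraries and above Ndufb9 in both mCAF-like libraries. Ndufa2 stood at a mean RPKM of 259 and 323 in vCAF-like, 275 and 321 in mCAF-like, 424 and 511 in cCAF-like and 337 and 440.2 in dCAF-like cells of tumors 1 and 2. Ndufb9 stood at 266 and 296, 213 and 283, 383 and 358, and 499 and 590.3 in the same order, and Ndufa3 at 244 and 252, 282 and 371, 349.7 and 518, and 365 and 439. For all 3 genes both cCAF-like and both dCAF-like libraries were above both vCAF-like libraries. Ndufs1, the largest core subunit, had a lower level, at 48.8 and 43.4, 31.2 and 43.7, 61.9 and 102, and 57.5 and 82.7.

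Complex III was led by Uqcrh, the hinge protein that binds cytochrome c1. Its mean RPKM was 421 and 439 in vCAF-like, 257 and 337 in mCAF-like, 433 and 729.7 in cCAF-like and 495 and 547 in dCAF-like cells of tumors 1 and 2. Uqcrq stood at 188 and 196, 152 and 184, 223 and 244, and 322 and 361, and Uqcr10 at 180.1 and 179, 130.3 and 155, 219 and 322, and 379.7 and 306. Uqcrfs1, the Rieske iron-sulfur protein that takes electrons from ubiquinol, stood at 168 and 155, 64.1 and 65.1, 186 and 258, and 195 and 173. For all 4 genes both mCAF-like libraries were below both vCAF-like ones.

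Complex IV and complex V held the most abundant members by the mean RPKM over all cells used. Ndufa4, counted here with complex I, stood above Cox4i1 in both dCAF-like libraries. Cox4i1, the common form of the regulatory subunit 4, had a mean RPKM of 624 and 659 in vCAF-like, 388 and 424 in mCAF-like, 727 and 832 in cCAF-like and 707 and 789.6 in dCAF-like cells. Cox6b1 had 439 and 440.2, 325 and 323, 602 and 743, and 766 and 639, and Cox6a1 380.3 and 399.6, 309 and 357, 564 and 568, and 473 and 641. For these genes the mCAF-like libraries were the lowest and the order of the other populations differed by gene. On that mean over all cells, Atp5b, the catalytic beta subunit of ATP synthase, was the most abundant member, though not in every library. In both mCAF-like libraries Cox4i1 stood above Atp5b, and in both dCAF-like libraries Cox4i1 or Cox6b1 did. Atp5b had 771 and 732 in vCAF-like, 373 and 338 in mCAF-like, 1065 and 1030.3 in cCAF-like and 755 and 725 in dCAF-like cells. Atp5j, a subunit of the stalk, had 379 and 383, 319.8 and 358, 535 and 582, and 488 and 703, and Atp5g3, the most abundant of the 3 genes for the membrane ring, 309 and 352, 197 and 195, 509 and 569, and 328 and 628.

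Over the 71 genes tested below, the mean RPKM was highest in cCAF-like cells for 42 and in dCAF-like cells for 29, and lowest in mCAF-like cells for 61 and in vCAF-like cells for 7. With log2(RPKM + 1) averaged over cells, in which cells without a read weigh more, the lowest mean was in mCAF-like cells for 39 and in vCAF-like cells for 25. The vCAF-like cells had a median of 4053 and 4195 genes read per cell, against 5709 and 5569 in mCAF-like cells, and the part of this in the counts was not tested.

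Tests were made with edgeR on the 8 libraries over 11665 genes with mean RPKM 1 or higher, at an adjusted p of 0.05, and 71 of the 76 genes were among them. Ndufs5, Atp5g2, Cox6a2, Cox7b2 and Cox8c fell below that level. The 3 comparisons below share the vCAF-like libraries and are not independent of each other. Over all genes the median log2 fold change was -0.02, -0.05 and -0.08 in mCAF-like, cCAF-like and dCAF-like against vCAF-like cells with library scaling, and 0.72, 0.59 and 0.48 with ERCC scaling, which is the shift against which the fold changes on the ERCC scale are read. For dCAF-like cells that shift was 0.06 in tumor 1 and 0.64 in tumor 2.

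In mCAF-like against vCAF-like cells most of the genes were lower by a small amount, 1 rose and 1 fell. Of the 71 genes Ndufa4 was called higher and Atp5b lower, beside 5.69% of all genes. The log2 fold change was below 0 for 60 and above 0 for 11, with a median of -0.20 and quartiles of -0.43 and -0.05. In single tumors the median was -0.25 and -0.18. Both mCAF-like libraries were below both vCAF-like ones for 42 of the 71 genes, beside 29.5% of all genes, and above both for 8, beside 29% of all genes. At an unadjusted p under 0.05, 10 of the 71 were lower and 1 higher, beside 829 lower and 1038 higher of all 11665 genes (16%). DESeq2 called 7 of the 71, beside 12.1% of all genes, of which Atp5a1, Atp5b, Atp5c1, Cox5a, Uqcrc2 and Uqcrfs1 were lower and Ndufa4 higher.

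The fall of Atp5b was at the edge of the threshold, with a log2 fold change of -0.85 (SE 0.19, adjusted p = 0.049). With tumor as a block its adjusted p was 0.058, with the t-SNE map of the next lowest cost 0.056 and without wells that held an Epcam read 0.073, so that it did not pass there. It also missed the threshold with DBSCAN at an eps of 2.3 (adjusted p = 0.065), where Uqcrfs1 passed instead (adjusted p = 0.029). Its catalytic partner Atp5a1 had -0.73 (SE 0.19, adjusted p = 0.081). In complex III the lowest were Uqcrfs1 at -1.11 (SE 0.26, adjusted p = 0.057) and Uqcrc2, a core protein, at -0.70 (SE 0.22). In complex IV they were Cox7a1, the muscle form of subunit 7a, at -1.89 (SE 1.11) and Cox8a, the common form of subunit 8, at -0.79 (SE 0.24), and in complex I Ndufs8, an iron-sulfur core subunit, at -0.61 (SE 0.23) and Ndufb8 at -0.54 (SE 0.25). The highest values other than that of Ndufa4 were 0.49 (SE 0.22) for Ndufa3 in complex I, -0.03 for Uqcrq and -0.13 for Uqcr10 in complex III, 0.20 for Cox6b2 in complex IV, and 0.76 (SE 0.62) for Atp5g1 and 0.11 for Atp5e in complex V, none of which passed. Cox8b had 1 read in the mCAF-like libraries and 0 in the vCAF-like ones, so no fold is given, though its fitted value is among the 11 above 0. By complex the median was -0.10 for complex I, -0.42 for complex III, where all 8 were below 0, -0.27 for complex IV and -0.23 for complex V. In tumors 1 and 2 it was -0.17 and -0.12 for complex I and -0.46 and -0.24 for complex IV.

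With ERCC scaling the median turned positive, as did that of all genes. The median over the 71 genes was 0.54, 67 were above 0, and 2 were called, Ndufa4 and Ndufa3, beside 9.21% of all genes. The median over all genes was 0.72 on this scale. Atp5b had -0.10 (SE 0.26) and Uqcrfs1 -0.36 (SE 0.30) on this scale.

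**Figure D3:**
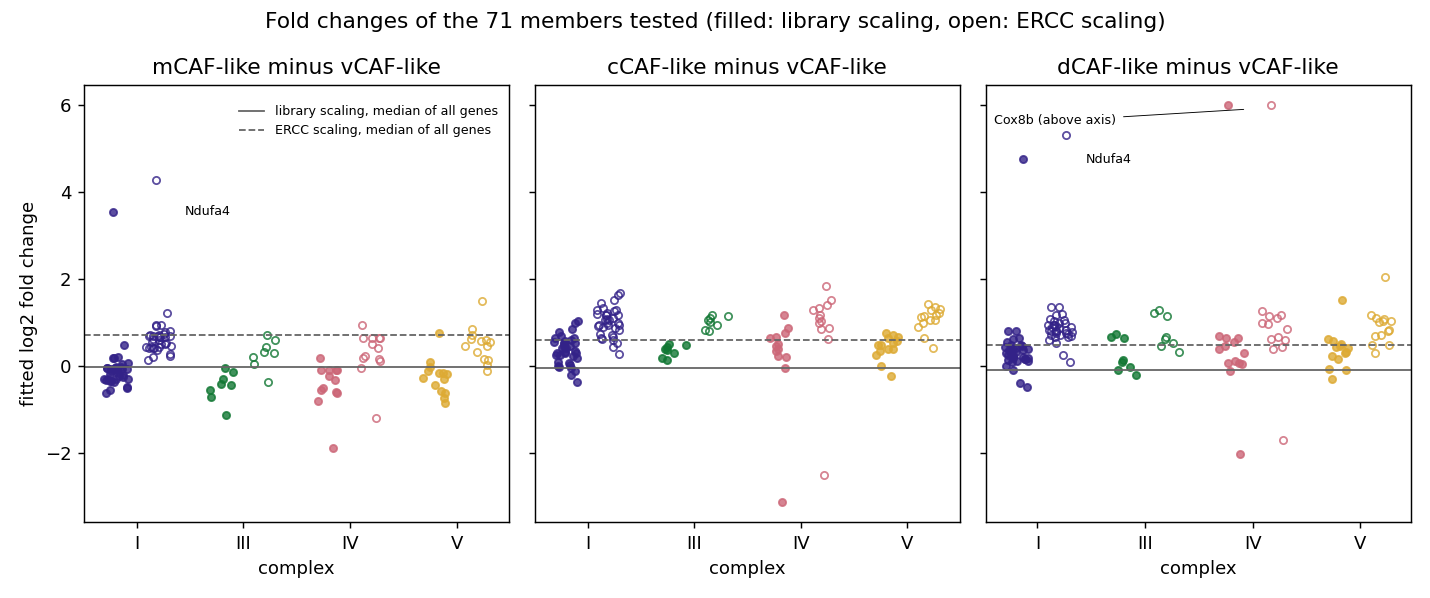
Fitted log2 fold change (vertical axis) of the 71 tested members by complex (horizontal axis) for each population against vCAF-like cells, filled with library scaling and open with ERCC scaling, with solid and dashed lines at the medians of all genes on the 2 scales. In mCAF-like cells the filled points lie mostly below the solid line, in cCAF-like and dCAF-like cells mostly above it, and Ndufa4 stands apart at 3.54 and 4.75 in mCAF-like and dCAF-like cells, and Cox8b is drawn for dCAF-like cells alone, at the top edge.

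In cCAF-like against vCAF-like cells the values were higher for most of the genes, without a call. By edgeR 0 of the 71 passed, beside 0.386% of all genes. At an unadjusted p under 0.05, 17 were higher and 1 lower, beside 698 higher and 773 lower of all 11665 genes (12.6%). DESeq2 called 5, all higher (Ndufa4, Ndufa5, Cox5a, Cox7a2 and Atp5o), beside 398 higher and 382 lower of all genes (6.69%). The log2 fold change was above 0 for 61 of the 71, with a median of 0.41 (0.37 and 0.43 in single tumors). Both cCAF-like libraries were above both vCAF-like ones for 53 of the 71, beside 22.1% of all genes, and below for 2, beside 28% of all genes. The lowest p were those of Ndufa4 at 1.04 (SE 0.23, adjusted p = 0.12), Cox7a2 at 0.87 (SE 0.22, adjusted p = 0.15), Atp5o at 0.77 (SE 0.19), Cox5a at 0.75 (SE 0.20) and Ndufa5 at 0.99 (SE 0.27). Cox7a1 was lowest at -3.12 (SE 1.23, adjusted p = 0.36), with a mean RPKM of 4.42 and 15.3 in vCAF-like against 0.774 and 1.29 in cCAF-like cells.

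On the ERCC scale the cCAF-like median was 1.06 beside 0.59 over all genes, and 70 of the 71 genes were above 0. By edgeR 0 of the 71 were called there, beside 0.574% of all genes, while 54 were higher at an unadjusted p under 0.05, beside 17.9% of all genes.

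In dCAF-like against vCAF-like cells Ndufa4 rose. Of the 71 genes tested 2 passed, Ndufa4 and Cox8b, beside 11.2% of all genes, but Cox8b had reached a mean RPKM of 1 only through its reads in dCAF-like cells, so its values are given below as a description. The log2 fold change was above 0 for 60, with a median of 0.30 (0.37 and 0.24 in single tumors), and both dCAF-like libraries were above both vCAF-like ones for 44 of the 71, beside 24.3% of all genes, and below both for 4, beside 33.5% of all genes. At an unadjusted p under 0.05, 13 were higher and 0 lower, beside 1116 higher and 1829 lower of all 11665 genes (25.2%). DESeq2 called 13, Cox8b among them, all higher, beside 970 higher and 1407 lower of all genes (20.4%). Ndufa11, an accessory subunit of complex I, had 0.81 (SE 0.22, adjusted p = 0.058), Cox5a 0.70 (SE 0.20, adjusted p = 0.071) and Uqcrq 0.73 (SE 0.22, adjusted p = 0.082). Ndufa11 passed by edgeR with DESeq2 size factors (adjusted p = 0.049) and with DBSCAN at an eps of 2.3 (adjusted p = 0.046). By complex the median was 0.30, 0.12, 0.35 and 0.37 for complexes I, III, IV and V, and that of complex III was 0.22 in tumor 1 and 0.04 in tumor 2. The epithelial markers given above were highest in the dCAF-like libraries. Among dCAF-like cells 2 of 9 and 4 of 20 held an Epcam read. Without all wells that held one, the fit with library scaling also called 2 of the 71 (Ndufa4 and Cox8b), and the median was 0.26. At least 1 of the 9 epithelial markers was read in 88.9% and 85.0% of dCAF-like cells, against 18.8% to 36.8% in the other libraries. Leaving out wells with an Epcam read thus keeps most dCAF-like cells with epithelial reads.

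On the ERCC scale 11 of the 71 genes were called higher and 0 lower in dCAF-like cells. Of all 11665 genes 734 were called higher and 559 lower, together 11.1%. The median over the 71 genes was 0.83 beside 0.48 over all genes. By tumor it was 0.69 beside 0.06 in tumor 1 and 0.98 beside 0.64 in tumor 2. Cox8b, which passed the filter on levels only through its dCAF-like reads, was among the 11 genes called. They were 4 of complex I (Ndufa4, Ndufa11, Ndufb9 and Ndufc2), Uqcrq of complex III, 5 of complex IV (Cox5a, Cox6b1, Cox6c, Cox7b and Cox8b) and Atp5o of complex V. With tumor as a block on that scale 8 were called. The dCAF-like libraries were the smallest, and 2 wells of tumor 2 had only 129 and 224 ERCC reads. With each well scaled to equal ERCC reads the median was 2.12, and without these 2 wells it was 1.15. The part of the epithelial markers in the differences on the ERCC scale was not tested.

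Ndufa4 rose in mCAF-like and dCAF-like against vCAF-like cells and did not pass in cCAF-like cells by edgeR with DBSCAN clusters. Its product was first counted with complex I and is now known as a subunit of complex IV. The gene lies at chr6:11900372-11907450 in GRCm38. Its mean RPKM was 21.8 and 30.8 in vCAF-like, 277 and 314 in mCAF-like, 69.0 and 66.2 in cCAF-like and 710.4 and 829 in dCAF-like cells of tumors 1 and 2. The library means of the 4 populations did not overlap, though single cells did, from vCAF-like as the lowest through cCAF-like and mCAF-like to dCAF-like as the highest. Against vCAF-like cells the log2 fold change was 3.54 (SE 0.25, adjusted p = 0.00095) in mCAF-like and 4.75 (SE 0.26, adjusted p = 0.00016) in dCAF-like cells, and with ERCC scaling 4.28 (SE 0.34) and 5.30 (SE 0.35). In cCAF-like cells the value of 1.04 became 2.05 with Leiden clustering, where it passed (edgeR adjusted p = 0.044), and it passed with DESeq2 (adjusted p = 0.0044).

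The populations differed in the number of cells with an Ndufa4 read as well as in its level. Ndufa4 was read in 46 of 234 and 50 of 211 vCAF-like cells (19.7% and 23.7%), 73 of 76 and 61 of 66 mCAF-like cells (96.1% and 92.4%), 10 of 24 and 6 of 19 cCAF-like cells (41.7% and 31.6%) and 9 of 9 and 19 of 20 dCAF-like cells (100% and 95.0%). At 50000 reads per cell the shares were 12.5% and 20.8%, 95.9% and 90.9%, 43.5% and 33.3%, and 100% and 94.4%, so vCAF-like and cCAF-like cells stayed below the others at matched depth. The median vCAF-like cell was at 0 in both tumors while the highest reached an RPKM of 437 and 534. Atp5b, by comparison, was read in 99.6% and 99.5% of the vCAF-like cells. Among the wells without an Epcam read the mean RPKM of Ndufa4 was 22.4 and 29.9 in vCAF-like and 685 and 773 in dCAF-like cells. Such wells can still hold reads of the other epithelial markers, as given above.

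**Figure D4:**
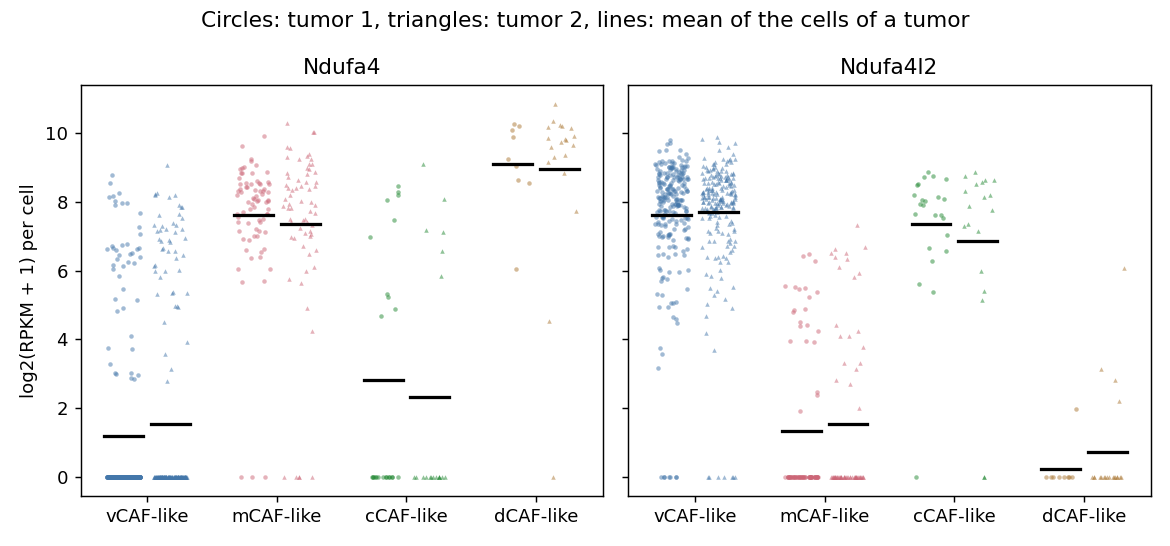
Ndufa4 (left) and its paralog Ndufa4l2 (right) in each cell, as log2(RPKM + 1) on the vertical axis, by population and tumor (circles tumor 1, triangles tumor 2), with black lines at the mean of a tumor's cells. Most vCAF-like cells lie at 0 for Ndufa4 and above 0 for Ndufa4l2, and most dCAF-like and mCAF-like cells show the opposite.

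The paralog Ndufa4l2, a target of hypoxia-inducible factors that is no member of the list, had a mean RPKM of 290.0 and 295 in vCAF-like, 9.52 and 15.3 in mCAF-like, 232 and 231 in cCAF-like and 0.328 and 4.24 in dCAF-like cells, and Cox4i2, the alternative form of subunit 4, 319 and 295, 0.865 and 1.93, 272 and 188, and 1.77 and 2.09. In the same cells Ndufa4l2 without Ndufa4 was read in 185 and 157 vCAF-like cells, both in 42 and 47, Ndufa4 alone in 4 and 3, and neither in 3 and 4. In mCAF-like cells Ndufa4 alone was read in 52 and 43, both in 21 and 18, and Ndufa4l2 alone in 1 and 3, and in dCAF-like cells Ndufa4 alone in 8 and 15 and both in 1 and 4. In cCAF-like cells Ndufa4l2 alone was read in 13 and 13, both in 10 and 4, Ndufa4 alone in 0 and 2, and neither in 1 and 0. Ndufa4 shares none of the 43-base windows that were compared between transcripts with another gene. Unlike Ndufa4, the common subunit Cox4i1 was read in 234 of 234 cells of tumor 1 and 209 of 211 of tumor 2 among vCAF-like cells.

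Cox8b, the form of subunit 8 known from heart, skeletal muscle and brown fat, was read in dCAF-like cells and hardly elsewhere. The gene lies at chr7:140898942-140900446 in GRCm38. It had 0 reads in both vCAF-like libraries, both cCAF-like libraries and the mCAF-like library of tumor 1, 1 read in the mCAF-like library of tumor 2, and 10 and 154 reads in the dCAF-like libraries, from 3 of 9 and 9 of 20 cells. These are 4.27 and 41.3 counts per 1e6 endogenous reads (CPM), at least 71.1-fold and 607-fold higher than in vCAF-like cells of tumors 1 and 2 when a library with 0 reads is set to a floor of 3 reads per library. In tumor 1 a single cell gave 70% of the reads, and in tumor 2 one gave 27.9%. Of the 12 dCAF-like cells with a Cox8b read 1 also had an Epcam read. The other epithelial markers are not given for these 12 cells. The 4 skeletal muscle markers checked summed to a mean RPKM of 0.515 and 0.743 in the dCAF-like libraries, with 3 of the 4 at 0 in each, and all 4 adipocyte markers were at 0 there.

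In the other isoform pairs the common form had the higher level. Cox8a had a mean RPKM of 417 and 407 in vCAF-like and 472 and 387 in dCAF-like cells, above the 9.93 and 124 of Cox8b. Cox6a2, the muscle form beside Cox6a1, was read in 1 cell, and Cox7b2, beside Cox7b, also in 1 cell. Cox7a2 stood at 176 and 185, 98.9 and 115, 313 and 423, and 216 and 244, against at most 17.5 for Cox7a1 in any library, and Cox7a2l, a factor of supercomplexes, at 41.1 to 78.9. Cox6b2, known from testis, was read in 152 cells, with a mean RPKM between 0 and 35.4 by library. Among the genes for the ATP synthase ring, whose mature proteins are identical, Atp5g3 led, Atp5g1 had 5.78 and 7.58 in vCAF-like, 10.3 and 8.40 in mCAF-like, 12.8 and 9.87 in cCAF-like and 21.5 and 30.8 in dCAF-like cells, and Atp5g2 at most 2.43.

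Some common subunits were read at levels far from those of their complex. Ndufs5 was read in 2 cells with a mean RPKM of 0.400, and Atp5g2, Atp5l, Atp5g1 and Cox7c had a mean RPKM of 0.634, 4.55, 8.49 and 8.35 over all cells. The share of 43-base windows (the read length) of their longest transcript that also occurred in a transcript of another gene of the GENCODE annotation was 32.9% for Ndufs5, 16.6% for Atp5g2, 85.1% for Atp5l, 12.8% for Atp5g1 and 28.6% for Cox7c, against a median of 4.38% over the 76 genes, of which 29 shared none. The other genes with a share over 40% stood higher, with a mean RPKM of 94.8 for Atp5h (52%), 82.6 for Uqcrb (49.1%), 42.9 for Ndufs3 (44.5%) and 167 for Atp5f1 (41.7%). The levels of genes with shared windows are uncertain, since reads could be assigned to a copy, and the part of this in the low levels was not tested. Ndufa4 and Cox8b shared none.

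The other genes of the pathway were described by the same counts. The 10 subunits outside the symbol rule, among them the succinate dehydrogenase genes of complex II, had medians of -0.24, 0.48 and 0.15 in mCAF-like, cCAF-like and dCAF-like against vCAF-like cells with library scaling. The 13 genes of the TCA cycle, which supplies NADH, had -0.35, 0.45 and 0.25, with 13 below 0 in mCAF-like and 12 above 0 in cCAF-like cells. The TCA cycle median in dCAF-like cells was 0.43 in tumor 1 and 0.00 in tumor 2. The 7 carriers and channels had -0.32, 0.15 and 0.34, and the 32 assembly factors tested 0.11, 0.20 and 0.10. For the assembly factors the sign differed between tumors 1 and 2 in mCAF-like (-0.04 and 0.09) and dCAF-like cells (-0.18 and 0.30). With ERCC scaling the mCAF-like medians were 0.51 for the subunits, 0.40 for the TCA cycle, 0.43 for the carriers and 0.86 for the assembly factors. The median over all genes was 0.72 on that scale, and all 13 TCA cycle genes were above 0. No gene of these 4 lists passed by edgeR with library scaling, while at an unadjusted p under 0.05 there were 14 passes over the 3 comparisons, beside 16%, 12.6% and 25.2% of all genes. With ERCC scaling 3 of them were called higher in dCAF-like cells, namely Sdhb of complex II, Idh3g of the TCA cycle and Ucp2, an uncoupling protein. Of all 11665 genes 734 were called higher and 559 lower there (11.1%). The 76 mitochondrial ribosomal genes tested had -0.07 (-0.16 and 0.03 in tumors 1 and 2), 0.37 and 0.37. Mrpl17 (1.25, SE 0.24) and Mrps6 (2.07, SE 0.36) were called higher in dCAF-like cells with library scaling. Of all 11665 genes 442 were called higher and 864 lower there (11.2%). The 81 cytosolic ribosomal genes tested had -0.16 (-0.22 and -0.07), 0.13 (0.18 and -0.03) and 0.40, with Rplp1 called higher and Rps4l lower in dCAF-like cells, of which Rplp1 was lost with tumor as a block.

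Of the 12 tested regulators of mitochondrial biogenesis 1 was called, beside 11.2% of all genes in that comparison. Ppargc1b, a coactivator of respiratory genes, fell in dCAF-like cells (adjusted p = 0.025, but 0.056 with tumor as a block), with a mean RPKM of 3.13 and 2.36 in vCAF-like cells and 0 in both dCAF-like libraries. Medians of these regulators were -0.27, -0.20 and -0.16. In tumors 1 and 2 they were -0.45 and -0.16 in mCAF-like, 0.02 and -0.35 in cCAF-like and -0.25 and 0.07 in dCAF-like cells, and the cCAF-like median was -0.42 with tumor as a block. Nrf1 had a log2 fold change of -0.24, 0.56 and 0.18 and Gabpa -0.24, 0.49 and 0.01, and neither passed. The 15 glycolysis genes tested had medians of -0.20, -0.11 and 0.41. In tumors 1 and 2 these were -0.45 and -0.30, 0.08 and -0.62, and 0.85 and 0.04, so that the sign in cCAF-like cells and the size in dCAF-like cells depended on the tumor. By edgeR Hk1 (1.17, SE 0.24) and Aldoc (9.69, SE 0.90) were called higher in dCAF-like cells, and 0 were called lower. Of all 11665 genes 442 were called higher and 864 lower there (11.2%). Aldoc was also among the leading genes of the dCAF-like cluster.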

How the data were processed

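The tables held deposited read counts and deposited RPKM values of single wells for 24490 genes and 92 ERCC spike-ins. The authors aligned single-end reads to mm10 with STAR, counted reads on RefSeq genes and computed RPKM with rpkmforgenes. Whether reads with several positions were counted is not given in the sources used here. Doublets were gated out in the sort, and no caller was run. Wells with at least 10000 endogenous reads were embedded by t-SNE on variable genes (Rtsne 0.17), and the map of lowest cost over 50 seeds was clustered by DBSCAN at an eps of 2.2. On a grid from 2.0 to 3.5 this was the eps nearest 2.5 at which each of the 4 marker lists named a cluster. Only 2.0, 2.1 and 2.2 met this, so the presence of 4 populations was a condition of the choice and not a result. The map was recomputed from rounded principal components after results of an earlier map had been seen, because the earlier one could not be rebuilt exactly, and it was kept before its own values were computed. The rule that names clusters was changed after names had been seen and before values of the oxidative phosphorylation genes were computed. Counts of each population and tumor were added up and fitted with edgeR 4.0.16 (quasi-likelihood, R 4.3.3). In these fits library scaling used total endogenous reads with TMM factors. ERCC scaling used ERCC reads as library size with no such factor. The shares of reads carry no TMM factor. Genes had to reach a mean RPKM of 1, and p-values were adjusted by Benjamini-Hochberg over 11665 genes. DESeq2 1.42.0, other filters, clusterings, maps and weights of cells were alternatives. The script was tested on simulated data. Genes named with values are the 3 most abundant of each complex, the 2 highest and 2 lowest in mCAF-like cells, called genes and paralogs of 1 subunit, and Ndufs1, the low subunits and the isoforms outside the list were added after values were seen. The members and lists were chosen with earlier results of these data known. Libraries of the same tumor share an animal, and their deviations from the population means correlated at 0.0201 to 0.123. The levels of 1 member are not reported here, though it is counted in all sums and lists.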

Additional observations from a re-analysis of the deposited data

How the results depend on the processing

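Limits: with 2 tumors, small populations (9 and 20 dCAF-like cells) and rebuilt clusters, the tests see only large differences, and the ERCC scale rests on equal spike-in per well. Populations depended on the t-SNE map. With the map of the next lowest cost 483 cells were vCAF-like instead of 445, and the medians were -0.21, 0.40 and 0.30 for mCAF-like, cCAF-like and dCAF-like against vCAF-like cells. In mCAF-like cells the count of 2 called genes became 1 with that map, with tumor as a replicate block (pairing by tumor), with DESeq2 size factors, with the study's rule on wells, without Epcam-read wells, without cytosolic ribosomal genes and at an adjusted p of 0.001, and 7 with DESeq2. It was 3 when a mean RPKM of 10 was required, with Uqcrfs1 added, and 2 at an eps of 2.3, with Uqcrfs1 in place of Atp5b. With library scaling the block changed no other count of called members, which stayed 0 and 2 in cCAF-like and dCAF-like cells. In cCAF-like cells 0 became 5 with DESeq2 and 1 (Ndufa4) with Leiden clustering. In dCAF-like cells 2 became 3 with DESeq2 size factors in edgeR and at an eps of 2.3, with Ndufa11 added in both. It became 11 with ERCC scaling, 8 with the block added to that scaling, and 13 with DESeq2. It was 6 when a mean RPKM of 10 was required and 1 at an adjusted p of 0.001. Cox8b, which passed the filter on levels only through its dCAF-like reads, is in all dCAF-like counts here except the 6 and the 1. The mCAF-like median of -0.20 turned to 0.54 with ERCC scaling, 0.55 with the block added and 0.59 with wells scaled to equal ERCC reads, and was -0.25 with Leiden clustering (-0.254), -0.25 at an eps of 2.3 (-0.252), and -0.25 to -0.18 in single tumors (-0.253 and -0.183). The cCAF-like median of 0.41 became 1.06, 1.06 and 1.10 on these ERCC scales, 0.46 with wells scaled to equal reads (0.464), 0.31 with Leiden clustering, and 0.37 to 0.43 in single tumors. The dCAF-like median of 0.30 became 0.83, 0.83 and 2.12 on the ERCC scales (0.833 and 0.831 for the first pair), the last 1.15 without 2 wells of few ERCC reads (129 and 224). It was 0.43 with wells scaled to equal reads (0.434), 0.18 with Leiden clustering (0.184), and 0.24 to 0.37 in single tumors. The vCAF-like share of 1.17% became 1.15% as a mean of wells (1.149%), 1.18% with the study's rule on wells (1.175%) and 1.23% with Leiden clustering, and the dCAF-like share of 1.55% became 1.502% and 1.394% with the first and the last of these. An eps of 3.1 gave no comparison, and an eps of 2.3 none with cCAF-like cells. The causes were not tested. The alternatives with the other map, Epcam-read wells, ribosomal genes, few ERCC reads, an eps of 2.3, and ERCC scaling with block were chosen after seeing the data.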
